A study of Homo sapiens with 12 samples.

Results

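The Notch genes described here are 4 receptors (NOTCH1, NOTCH2, NOTCH3 and NOTCH4), 3 ligands (JAG1, JAG2 and DLL1) and 3 target genes (HES1, HEY1 and HEYL), taken by symbol from the raw count files. All 10 were found among the 23228 genes of the files, and all 10 were among the 14874 genes that passed the filter on low counts. They were followed in SUM149PT, an established human cell line from an inflammatory breast cancer, by RNA sequencing of polyadenylated RNA. The labels name 4 groups of 3 libraries, 12 in all, with replicate letters A, B and C. From day -5 all cells were grown in DMSO, the solvent, or in tazemetostat at 5 µM, which blocks EZH2, an enzyme that methylates histone H3, and were passaged on day -3 and plated on day -1 at 250000 cells per 6 cm plate. On day 0 the medium held 2% serum and DMSO only, ipatasertib (which blocks the AKT kinases) at 5 µM, tazemetostat at 5 µM, or the combination of both inhibitors, and RNA was taken at 24 h. Tazemetostat had thus acted for days longer than ipatasertib wherever it was used. Every group is the same cell line, and the labels do not say that replicates were separate cultures, so p-values rest on the spread among these libraries alone, and that spread may be technical.

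Notch receptors span the cell membrane and are switched on by Jagged or Delta ligands on a neighbouring cell. Binding lets ADAM proteases and then γ-secretase cut the receptor, and the released intracellular domain enters the nucleus, joins the DNA-binding protein RBPJ and a Mastermind coactivator, and turns on genes such as those of the HES and HEY families. These targets are themselves repressors of transcription. In the breast the pathway takes part in the choice of luminal cell fate, and JAG1 and Notch receptors have been studied in tumours without hormone receptors.

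Libraries held 22355242 to 49970540 counts in genes. Levels are CPM, counts set relative to the size of each library after TMM scaling, a method that takes most genes as unchanged, and changes are log2 fold changes with an approximate standard error (SE) from 1 edgeR quasi-likelihood fit to all 12 libraries. A gene is said to have risen or fallen where its Benjamini-Hochberg adjusted p in the edgeR test, taken over all 14874 genes, was under 0.05. So many genes passed in this series that a second rule, a test against a 1.5-fold change, is given beside it. Scaling by total counts alone moved the median log2 change of all genes from -0.01 to 0.10 with ipatasertib, from 0.02 to 0.09 with tazemetostat and from 0.02 to 0.16 with the combination, each against DMSO. It moved the share of called genes that were higher from 46.9% to 63.1%, from 54.6% to 69.6% and from 51.4% to 62.6%. Reads outside any gene made up 19.7% ± 0.764 (SD, n = 3) of a DMSO library, 24.6% ± 0.961 with ipatasertib, 18.4% ± 0.501 with tazemetostat and 23.8% ± 0.923 with both inhibitors, so this share moved with ipatasertib, and its part in the results below was not tested. Within their groups, tazemetostat A and combination B were least like their 2 partners, with a chi-square per degree of freedom of 18.2 to 20.1 and 15.1 to 26.2 against 2.70 to 6.99 in the other pairs. All 6 epithelial markers read passed the filter, among them EPCAM at 323 ± 16.1 CPM and CDH1 at 331 ± 4.49 CPM under DMSO. Of the receptors that define breast cancer subtypes, ERBB2 was at 81.8 ± 1.23 CPM, ESR1 at 4.005 ± 0.134 CPM, and PGR had no counts under DMSO.

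Among the receptors, NOTCH1, NOTCH2 and NOTCH3 fell with each inhibitor and with the combination, and NOTCH4 passed the test in none of these comparisons. NOTCH1, the first-described receptor of the family, was at 45.0, 43.8 and 42.2 CPM in the DMSO libraries A, B and C, at 23.1, 22.02 and 22.1 CPM with ipatasertib, at 30.6, 31.99 and 32.4 CPM with tazemetostat and at 20.9, 16.8 and 19.6 CPM with the combination. The 4 groups did not overlap, with DMSO highest and the combination lowest. The fall was 1.95-fold with ipatasertib (log2 change -0.96, SE 0.07, edgeR adjusted p = 2.62e-09), 1.38-fold with tazemetostat (log2 change -0.46, SE 0.07, adjusted p = 3.11e-05) and 2.29-fold with the combination (log2 change -1.19, SE 0.08, adjusted p = 3.06e-11). Adding tazemetostat to ipatasertib moved NOTCH1 by a further -0.23 (SE 0.08, edgeR adjusted p = 0.0228). That step was no longer called without combination B (-0.16, adjusted p = 0.092), without ipatasertib A (-0.23, adjusted p = 0.0649) or without tazemetostat A and combination B (-0.16, adjusted p = 0.0512). Nor was it called with only the compared groups in the fit (-0.24, adjusted p = 0.0688). The summed level of the 6 epithelial markers took the same order of groups, at 2648 to 2769 CPM under DMSO, 2222 to 2437 CPM with tazemetostat, 1576 to 1711 CPM with ipatasertib and 1513 to 1584 CPM with the combination. Within it KRT5, a basal keratin, went from 633 ± 19.8 CPM under DMSO to 54.6 ± 4.15 CPM with the combination, while EPCAM was at 337 ± 10.4 CPM with ipatasertib and 343 ± 52.2 CPM with the combination. Its part in the NOTCH1 values, and in those of HES1 below, which took the same order of group means, was not tested. Fewer cells of a kind and less RNA per cell cannot be told apart in such bulk samples.

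NOTCH2, a receptor with a near-identical partial copy in the genome, was at 394, 382 and 375 CPM under DMSO, at 268, 272 and 291 CPM with ipatasertib, at 223, 267 and 237 CPM with tazemetostat and at 236, 209.8 and 232 CPM with the combination. Every treated library was below every DMSO library, and the tazemetostat and combination groups overlapped. The log2 change was -0.47 (SE 0.07) with ipatasertib, -0.66 (SE 0.07) with tazemetostat and -0.76 (SE 0.07) with the combination, at edgeR adjusted p = 6.04e-06, 1.34e-07 and 3.6e-09. The partial copy, listed as NOTCH2NL, was at 29.8 ± 1.33 CPM under DMSO and 29.5 ± 1.69 CPM with the combination (log2 change -0.02, SE 0.07, edgeR adjusted p = 0.848). How the authors' counting split reads between the copies is not given in the sources used here, so NOTCH2 values are uncertain to that extent.

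NOTCH3, a receptor with roles in smooth muscle and in luminal progenitors of the breast, was at 544, 538 and 512 CPM in the DMSO libraries and at 402, 399 and 451 CPM with ipatasertib. It was at 262, 256 and 266 CPM with tazemetostat and at 263, 189 and 234 CPM with the combination. The DMSO and ipatasertib groups stood apart from each other and from the tazemetostat-treated groups, which overlapped, with combination B the lowest library. The fall was 1.27-fold with ipatasertib (log2 change -0.35, SE 0.08, edgeR adjusted p = 0.0015), 2.03-fold with tazemetostat (log2 change -1.02, SE 0.08, adjusted p = 8.23e-09) and 2.32-fold with the combination (log2 change -1.22, SE 0.08, adjusted p = 1.32e-10). Adding tazemetostat to ipatasertib lowered NOTCH3 by a log2 change of -0.87 (SE 0.08, edgeR adjusted p = 8.25e-08). Adding ipatasertib to tazemetostat moved it by -0.19 (SE 0.08, edgeR adjusted p = 0.0531), a step that was called without combination A (-0.28, adjusted p = 0.00263) and without a low-count filter (-0.20, adjusted p = 0.0133), and not without combination B. The 3 genes whose log2 CPM over the 12 libraries was most like that of NOTCH3, the receptor with the widest range of group means, were ST3GAL2, a sialyltransferase, GANAB, a glucosidase of the endoplasmic reticulum, and ARSI, a sulfatase (Pearson r = 0.994, 0.992 and 0.991 over libraries that share their groups).

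NOTCH4, known mainly from endothelium, lay between 2.56 and 3.82 CPM in all 12 libraries, and each group overlapped its neighbour. GENCODE places GPSM3 over it on the same strand, and GPSM3 was at 3.59 ± 0.0532 CPM under DMSO and 1.74 ± 0.215 CPM with tazemetostat. The NOTCH4 log2 change was -0.21 (SE 0.14) with ipatasertib, -0.09 (SE 0.13) with tazemetostat and -0.20 (SE 0.14) with the combination (edgeR adjusted p = 0.222, 0.614 and 0.213). Per kilobase of merged GENCODE exons, a length that may differ from the one counted over, NOTCH3 stood at 56.5 CPM per kb under DMSO, NOTCH2 at 22.8, NOTCH1 at 4.21 and NOTCH4 at 0.343. With the combination the receptors kept this order, with 24.3 for NOTCH3, 13.4 for NOTCH2, 1.84 for NOTCH1 and 0.296 for NOTCH4. The panel of levels by library shows NOTCH1 lower with ipatasertib than with tazemetostat and lowest with the combination, while NOTCH3 separated mainly by tazemetostat.

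**Figure D1:**
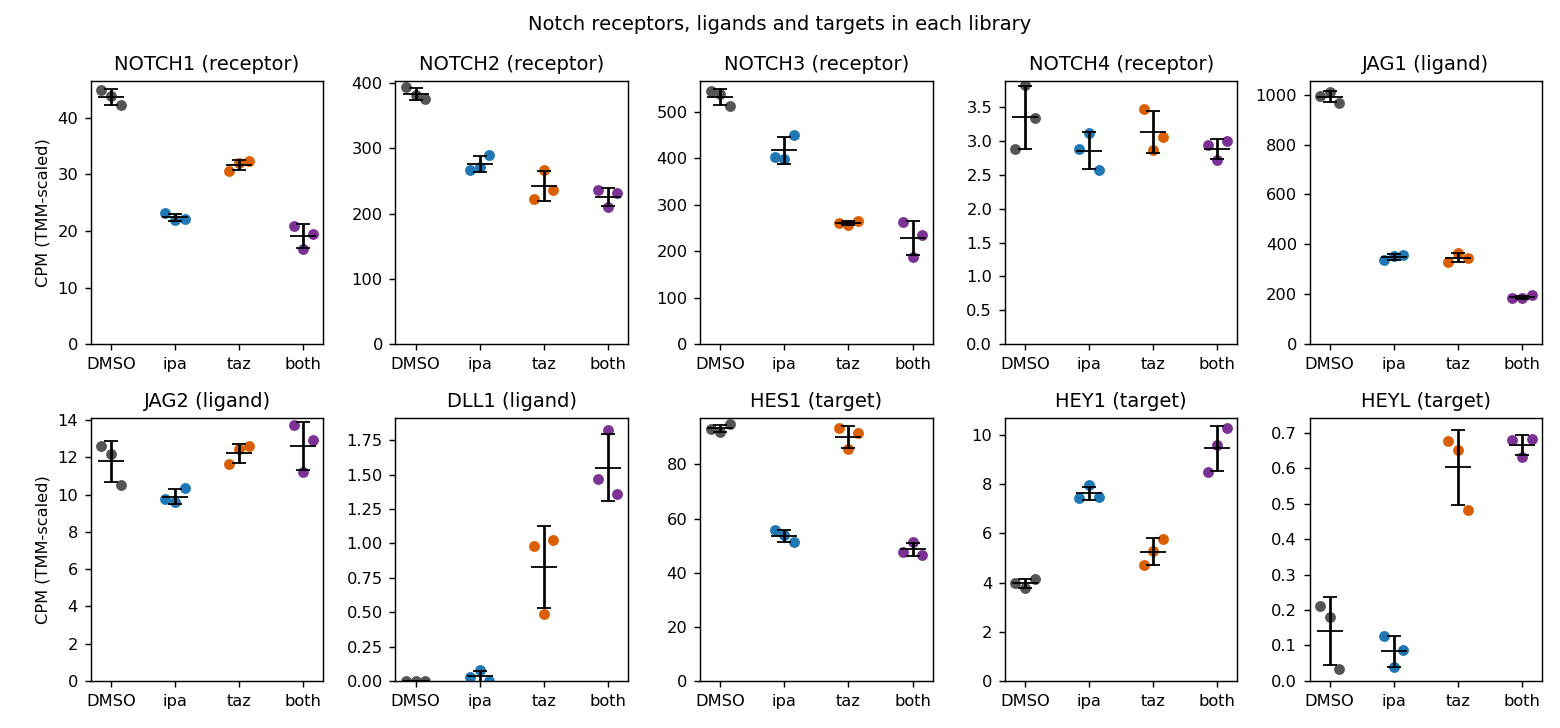
CPM (linear axis from 0, a scale of its own in each panel) of the 10 Notch genes in each of the 12 libraries, with points for libraries A, B and C and a black mark and bar for the mean and SD of 3 libraries; ipa, taz and both stand for ipatasertib, tazemetostat and the combination. JAG1 goes from 968 to 1011 CPM under DMSO down to 184 to 196 CPM with the combination, while DLL1 has no counts in any DMSO library.

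JAG1, the ligand with the highest level per kilobase among the 10 genes under DMSO (107 CPM per kb), had the largest fall of the group. It was at 994, 1011 and 968 CPM under DMSO, at 338, 352 and 358 CPM with ipatasertib, at 329.7, 366 and 343 CPM with tazemetostat and at 187, 184 and 196 CPM with the combination. The single-inhibitor groups overlapped each other, stood far below DMSO, and stood above all combination libraries. The fall was 2.84-fold with ipatasertib (log2 change -1.51, SE 0.06, edgeR adjusted p = 6.52e-14), 2.86-fold with tazemetostat (log2 change -1.52, SE 0.05, adjusted p = 5.96e-14) and 5.25-fold with the combination (log2 change -2.39, SE 0.06, adjusted p = 1.89e-17). These comparisons share the DMSO libraries. Each inhibitor also lowered JAG1 in cells that already had the other, by a log2 change of -0.89 (SE 0.05) for tazemetostat added to ipatasertib and -0.88 (SE 0.05) for ipatasertib added to tazemetostat (edgeR adjusted p = 1.29e-10 and 6.79e-11).

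JAG2, the other Jagged ligand, was at 12.6, 12.2 and 10.5 CPM under DMSO, at 9.76, 9.58 and 10.3 CPM with ipatasertib, at 11.6, 12.4 and 12.6 CPM with tazemetostat and at 13.7, 11.2 and 12.9 CPM with the combination. The ipatasertib libraries were the lowest 3 of the 12, close under DMSO C. The fall with ipatasertib was small (log2 change -0.26, SE 0.10, edgeR adjusted p = 0.0294). This call was lost in 6 of the 12 fits without 1 library, and over the 12 the change lay between -0.33 and -0.18. The libraries whose removal ended it were DMSO A, DMSO B, each of the 3 ipatasertib libraries and combination C. The call was also lost with DESeq2 (-0.24, adjusted p = 0.0508) and under scaling by total counts alone (-0.14, adjusted p = 0.23). Changing the filter ended it too, with no low-count filter (-0.23, adjusted p = 0.0656) or with 1 CPM in 3 libraries (-0.23, adjusted p = 0.0513). Tazemetostat and the combination gave log2 changes of 0.05 (SE 0.09) and 0.10 (SE 0.09), at edgeR adjusted p = 0.689 and 0.365. The second of these was called under scaling by total counts alone (0.23, adjusted p = 0.0366). Against ipatasertib alone the combination was higher by 0.35 (SE 0.10, edgeR adjusted p = 0.00653).

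DLL1, a Delta ligand, had 0 counts in each of the 3 DMSO libraries and 1, 2 and 0 counts with ipatasertib. With tazemetostat it had 42, 21 and 51 counts (0.978, 0.489 and 1.02 CPM), and with the combination 41, 49 and 50 counts (1.47, 1.82 and 1.36 CPM). All 6 tazemetostat-treated libraries were above the other 6, and the combination libraries were above those with tazemetostat alone. A count of 0 allows up to 3 counts, so over the group DLL1 was at least 29.8-fold higher with tazemetostat and at least 54.3-fold higher with the combination than under DMSO (edgeR adjusted p = 1.13e-06 and 1.4e-08). Such limits and intervals cover counting error only. Against the 3 counts of the ipatasertib group, the combination stood at a ratio of 45.5 (exact 95% interval 15.2 to 223). The combination exceeded tazemetostat alone by a log2 change of 0.88 (SE 0.27, edgeR adjusted p = 0.0104), a call that was lost without tazemetostat B (0.63, adjusted p = 0.0522). DLL1 passed the filter only through the tazemetostat-treated groups, so it could only be tested because it was high there.

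In GENCODE, FAM120B overlaps DLL1 on the opposite strand, and the strand setting of the counting is not given. FAM120B itself went from 26.7 ± 1.02 CPM (DMSO) to 28.5 ± 2.10 CPM (tazemetostat), a log2 change of 0.09 (SE 0.07, edgeR adjusted p = 0.287), and at 33.3 ± 0.762 CPM with the combination (0.31, SE 0.07, adjusted p = 0.000485). The genes with a pattern most like DLL1, the ligand with the widest range of group means, were SEMA4D, a semaphorin, MYADM, a membrane protein, and GNAZ, a G protein subunit (Pearson r = 0.994, 0.990 and 0.986 over the 12 libraries). GNAZ was likewise near 0 under DMSO (0.0109 ± 0.0189 CPM) and reached 0.941 ± 0.0899 CPM with the combination. SEMA4D was present in all groups, from 9.72 ± 0.254 CPM under DMSO to 22.6 ± 1.16 CPM with the combination.

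The target genes did not move together. HES1, a repressor and one of the most used readouts of Notch activity, was at 93.0, 92.1 and 94.8 CPM under DMSO and at 93.4, 85.7 and 91.5 CPM with tazemetostat. It was at 55.6, 54.0 and 51.2 CPM with ipatasertib and at 47.7, 51.4 and 46.6 CPM with the combination. The libraries thus fell into those without ipatasertib, which overlapped between DMSO and tazemetostat, and those with it, which overlapped between ipatasertib and the combination. HES1 fell 1.74-fold with ipatasertib (log2 change -0.80, SE 0.06, edgeR adjusted p = 2.17e-09) and 1.92-fold with the combination (log2 change -0.94, SE 0.06, adjusted p = 4.69e-11). With tazemetostat the change was -0.05 (SE 0.06, edgeR adjusted p = 0.525), and 0.022 under scaling by total counts alone. Adding tazemetostat to ipatasertib gave -0.14 (SE 0.06, edgeR adjusted p = 0.0727). This step was called with DESeq2 (-0.17, adjusted p = 0.0217) and with its size factors in edgeR (-0.17, adjusted p = 0.0377). It was also called without a low-count filter (-0.19, adjusted p = 0.0335) and without tazemetostat A and combination B (-0.19, adjusted p = 0.00374). The same held in 4 fits without 1 library, namely ipatasertib C (-0.19, adjusted p = 0.0421), tazemetostat A (-0.16, adjusted p = 0.0332), tazemetostat B (-0.16, adjusted p = 0.0448) or combination B (-0.19, adjusted p = 0.0165). Adding ipatasertib to tazemetostat gave -0.89 (SE 0.06, edgeR adjusted p = 2.37e-10).

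Promoters of HES1 and HEYL are shown because they were the members whose upstream sequence held the core letters of the RBPJ motif, TGGGAA or its reverse complement TTCCCA. They are the 250 bases before the start of transcription from RefSeq on GRCh38.p14, 5′ to 3′ on the gene's strand, with every match to that motif in capitals. HES1 lies on the plus strand at chr3:194135898-194136147, and HEYL on the minus strand at chr1:39639644-39639893. The counts were made on hg19, so these coordinates were not joined to them.
HES1: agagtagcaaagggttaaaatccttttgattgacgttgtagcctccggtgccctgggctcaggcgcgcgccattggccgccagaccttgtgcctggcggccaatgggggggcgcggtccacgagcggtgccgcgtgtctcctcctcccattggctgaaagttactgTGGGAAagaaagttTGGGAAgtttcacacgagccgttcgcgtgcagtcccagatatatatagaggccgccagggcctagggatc
HEYL: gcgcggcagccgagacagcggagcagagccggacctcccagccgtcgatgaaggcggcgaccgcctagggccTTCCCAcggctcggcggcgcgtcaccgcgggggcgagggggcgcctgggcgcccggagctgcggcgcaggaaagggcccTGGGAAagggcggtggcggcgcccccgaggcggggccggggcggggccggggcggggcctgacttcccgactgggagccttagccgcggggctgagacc
In HES1 the letters TGGGAA occurred from base -84 to -79 and from -70 to -65, counted from the start, in 1 orientation. In HEYL they occurred on the opposite strand from base -178 to -173 and on the gene's strand from -99 to -94. Of 8 members matched in the RefSeq table (DLL1 and HEY1 were not), 2 held the letters, as did 19.45% of the promoters of 9997 tested genes. The letters GTAAACA of the FOXO motif were in 0 of the 8 windows on either strand, and in 1.96% of all. The letters CACGTG of the E-box were in 0 of 8 and in 8.69% of all, and CACNAG of the N-box, which HES proteins bind, in 3 of 8 (HES1, NOTCH3 and NOTCH4) and in 28.75% of all. No match overlapped a match to another of these motifs. A match is a description of letters, not a measured binding site. NOTCH4 differed from the other members in CpG content, with an observed-to-expected ratio of 0.155 at the percentile 4.18 of these promoters, against 0.592 for JAG1 and 0.795 to 0.941 for the other 6.

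HEY1, a repressor of the HES-related family, rose with ipatasertib and with the combination, where HES1 fell. It was at 3.96, 3.79 and 4.15 CPM under DMSO, at 7.45, 7.95 and 7.48 CPM with ipatasertib, at 4.70, 5.28 and 5.78 CPM with tazemetostat and at 8.49, 9.60 and 10.3 CPM with the combination. The 4 groups did not overlap, in the order DMSO, tazemetostat, ipatasertib, combination. The rise was 1.92-fold with ipatasertib (log2 change 0.94, SE 0.11, edgeR adjusted p = 8.95e-07) and 2.39-fold with the combination (log2 change 1.26, SE 0.11, adjusted p = 3.91e-09). The 1.33-fold rise with tazemetostat (log2 change 0.41, SE 0.11, edgeR adjusted p = 0.00599) was not called without tazemetostat C (0.30, adjusted p = 0.0611). Adding tazemetostat to ipatasertib gave 0.32 (SE 0.10, edgeR adjusted p = 0.0211). That call was lost without ipatasertib A (0.28, adjusted p = 0.0927), ipatasertib C (0.29, adjusted p = 0.0666) or combination C (0.23, adjusted p = 0.137). It was also lost with DESeq2 (0.29, adjusted p = 0.0542) and without a low-count filter (0.27, adjusted p = 0.059).

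HEYL, a relative of HEY1 known from vascular mural cells, had few counts: 9, 6 and 1 under DMSO, 5, 1 and 2 with ipatasertib, 29, 28 and 24 with tazemetostat and 19, 17 and 25 with the combination. All 6 tazemetostat-treated libraries, at 0.482 to 0.681 CPM, were above the other 6, at 0.0327 to 0.211 CPM. The rise was 3.94-fold with tazemetostat (log2 change 1.98, SE 0.40, edgeR adjusted p = 0.00049) and 4.38-fold with the combination (log2 change 2.13, SE 0.41, adjusted p = 0.000122). With ipatasertib, where 8 counts stood against 16 under DMSO, the change was -0.72 (SE 0.64, edgeR adjusted p = 0.358). Like DLL1, HEYL passed the filter only through the tazemetostat-treated groups. The genes most like HEYL, the target with the widest range of group means, were ITGA2B, a platelet integrin subunit, and RAPGEF5, an activator of RAP proteins (Pearson r = 0.968 and 0.968 over 12 libraries).

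Because HEY1, HEYL and NOTCH4 are known from blood vessels, markers of vessel cells were read beside them. Of 5 endothelial markers 2 passed the filter, PECAM1 and CDH5, and VWF, KDR and TEK stayed at or under 0.290 CPM as group means. Their summed level ranged from 0.992 to 1.47 CPM under DMSO, 3.09 to 3.91 CPM with ipatasertib, 1.44 to 1.93 CPM with tazemetostat and 4.83 to 6.73 CPM with the combination, in the same order of groups as HEY1. Of 5 mural markers all passed the filter, and their sum was 251 to 266 CPM under DMSO, 174 to 189 CPM with ipatasertib, 216 to 230 CPM with tazemetostat and 143 to 166 CPM with the combination, carried by MCAM and CSPG4. The other 3 went the other way with ipatasertib: PDGFRB from 0.194 to 0.399 CPM, RGS5 from 1.38 to 2.04 CPM and ACTA2 from 1.87 to 2.77 CPM. With the combination RGS5 was at 2.84 CPM and ACTA2 at 3.47 CPM. PDGFRB was at 0.130 to 0.399 CPM as group means. The sum of 6 fibroblast markers, 5 of which passed, was 549 to 576 CPM under DMSO, 342 to 380 CPM with ipatasertib, 112 to 118 CPM with tazemetostat and 80.0 to 86.2 CPM with the combination, the order of groups seen for NOTCH3. It was mostly COL1A1 and DCN, while PDGFRA was at 0.0778 CPM or less as group means. COL1A1 and COL3A1 took this order and DCN did not. DCN was at 98.8 CPM under DMSO, 131 CPM with ipatasertib, 24.6 CPM with tazemetostat and 30.7 CPM with the combination. LUM was likewise higher with ipatasertib (12.6 CPM) than under DMSO (10.1 CPM). The part of other cells in the NOTCH3, HEY1 and HEYL values was not tested.

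Counted against all genes, ipatasertib lowered 6 of the 10 members where 28.7% of all tested genes fell, and raised 1 where 25.4% rose. The members were chosen with earlier results of these data known, so such counts beside all genes are descriptive only. Tazemetostat lowered 4 (20.9% of all genes fell) and raised 3 (25.1% rose), and the combination lowered 5 (34.5% of all genes fell) and raised 3 (36.5% rose). Leaving out DLL1 and HEYL, which had to be high in a tazemetostat group to be tested, tazemetostat raised 1 and the combination raised 1 of the other 8. Past the test against 1.5-fold were 4 members with ipatasertib (NOTCH1, JAG1, HES1 and HEY1), where 7.32% of all genes passed. With tazemetostat 4 passed (NOTCH3, JAG1, DLL1 and HEYL; 7.36% of all genes), and with the combination 8 (all but NOTCH4 and JAG2; 25.9% of all genes). Without DLL1 and HEYL these were 2 and 6 of 8. The median log2 change of the 10 members was -0.41 with ipatasertib, -0.07 with tazemetostat and -0.48 with both inhibitors, beside -0.01, 0.02 and 0.02 for all genes. Without DLL1 and HEYL the medians of the other 8 were -0.41, -0.28 and -0.85.

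**Figure D2:**
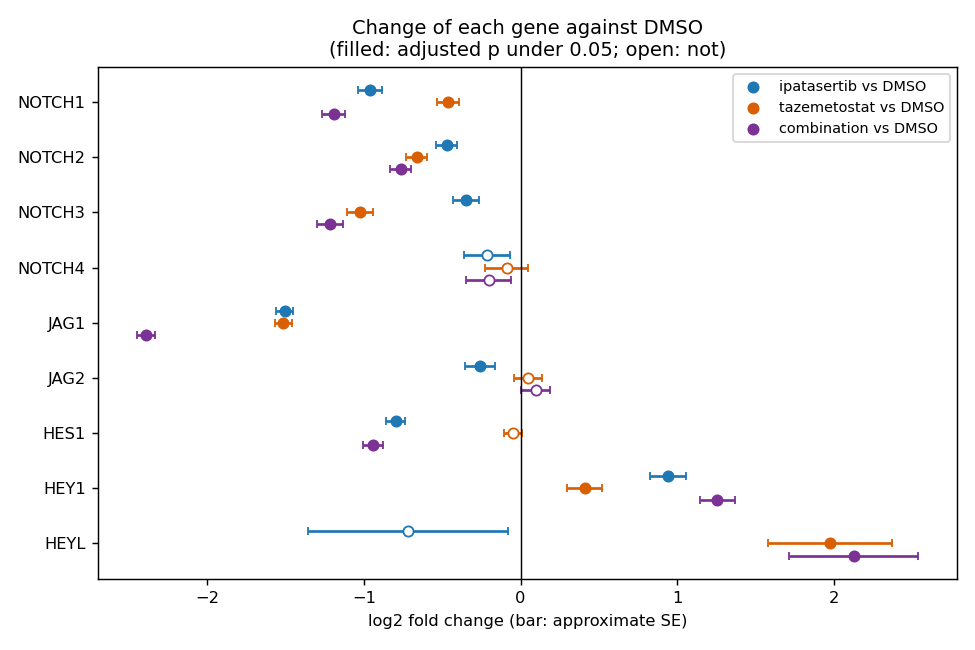
Log2 fold change against DMSO (x axis, bars are the approximate SE of the edgeR fit) for 9 Notch genes with ipatasertib, tazemetostat or the combination, filled where adjusted p was under 0.05; DLL1 is left out because DMSO had 0 counts. NOTCH1, NOTCH2, NOTCH3 and JAG1 are filled and left of 0 in all 3 comparisons, HES1 is left of 0 and filled with ipatasertib (-0.80) and the combination (-0.94), and HEY1 lies to the right in all 3.

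Adding tazemetostat to ipatasertib raised 4 members (21.8% of all genes) and lowered 4 (17.3%; 39.1% of all genes in either direction), with 4 past 1.5-fold (7.54%): NOTCH3, JAG1, DLL1 and HEYL. Without DLL1 and HEYL it raised 2 of the other 8, and 2 of them were past 1.5-fold. Adding ipatasertib to tazemetostat raised 2 (29.8% of all genes), HEY1 and DLL1 (1 of 8 without DLL1 and HEYL), and lowered 3 (30.8%), NOTCH1, JAG1 and HES1 (60.6% of all genes in either direction), and 3 passed 1.5-fold (13.4%): JAG1, HES1 and HEY1. NOTCH1 moved by -0.73 (SE 0.08, edgeR adjusted p = 7.02e-08) in that second step and HEY1 by 0.85 (SE 0.10, adjusted p = 7.03e-07).

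The interaction term asks whether the combination differs from what adding both single log2 changes would give. It was positive and called for JAG1 (0.63, SE 0.08, edgeR adjusted p = 6.57e-05) and NOTCH2 (0.37, SE 0.09, adjusted p = 0.0297), that is 2 of 10 members where 1.87% of all genes were called in that direction, and for none of the 10 in the other (1.75% of all genes). None of the members passed 1.5-fold for this term (0.108% of all genes). JAG1 would have been at 122 CPM had the log2 changes added, and was at 189 ± 5.85 CPM, while NOTCH2 would have been at 175 CPM and was at 226 ± 14.1 CPM. HES1 lay at 48.6 ± 2.48 CPM against 51.9 CPM for the sum, and HEY1 at 9.46 ± 0.911 against 10.1 CPM (interaction -0.10, SE 0.09, and -0.09, SE 0.15, edgeR adjusted p = 0.599 and 0.8). The NOTCH2 call was lost in 7 of the 12 fits without 1 library, those without DMSO A, B or C, ipatasertib A or B, tazemetostat C or combination C, at 0.36 to 0.39, and under scaling by total counts alone (0.32, adjusted p = 0.0551). Without combination B, 5 members were called higher (NOTCH1 at 0.33, NOTCH3 at 0.29 and JAG2 at 0.40 besides these), but the genes called among all genes also went from 539 to 2443. The plot of the combination against the sum of the single changes shows JAG1 farthest above the line relative to its error.

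**Figure D3:**
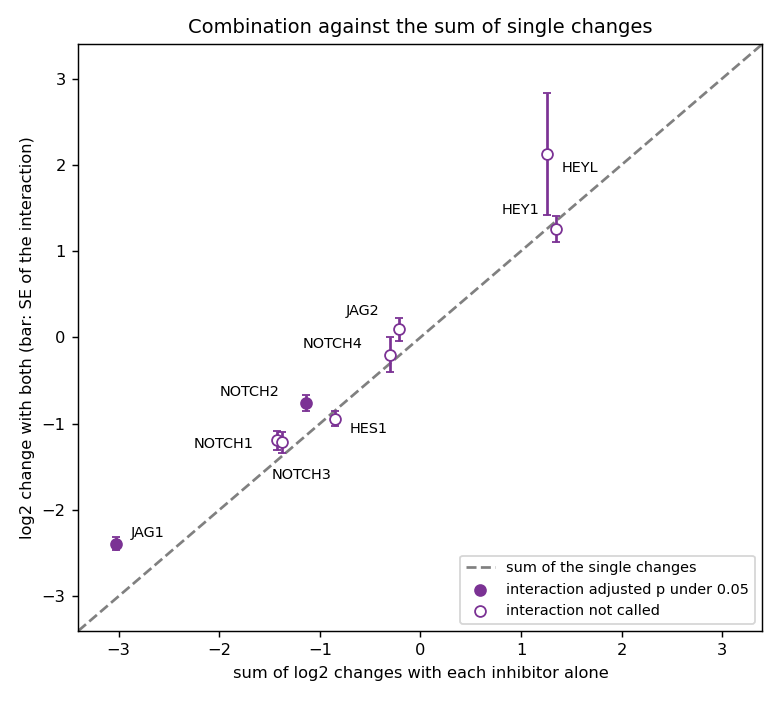
Log2 change with the combination (y axis, bars are the SE of the interaction) against both single-inhibitor log2 changes added together (x axis) for 9 Notch genes, each against DMSO; the dashed line marks equality and filled points have an interaction adjusted p under 0.05. JAG1 (0.63 above the line) and NOTCH2 (0.37 above) are filled, and HES1 and HEY1 lie next to the line.

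The rest of the pathway was read from a list of 63 other genes, of which 59 passed the filter. This list, too, was chosen with earlier results known, so its shares and those of its roles are descriptive only. With ipatasertib 10 rose and 20 fell, 50.8% together where 54.1% of all genes were called; the split was 22 higher and 14 lower under scaling by total counts alone. With tazemetostat 12 rose and 26 fell (64.4%, against 46.0% of all genes; 14 and 20 under total counts alone), and with the combination 20 rose and 22 fell (71.2%, against 71.0%; 24 and 16 under total counts alone). Without tazemetostat A and combination B, 19 rose and 21 fell with ipatasertib. The interaction was called for 3 (5.08%, against 3.62% of all genes), all positive (1.87% of all genes): SOX9, LFNG and the coactivator CREBBP (0.37, SE 0.10, edgeR adjusted p = 0.042). Under total counts alone it was called for 2 higher and 1 lower. It was called for only 1, higher, without DMSO A, DMSO B, ipatasertib A, ipatasertib B, tazemetostat B or tazemetostat C. Without ipatasertib C or combination C it was called for 2 higher. The 3 calls thus did not all hold in these fits. Leaving out tazemetostat A gave 7 higher, and leaving out combination B gave 12 higher and 4 lower. Without tazemetostat A and combination B it was called for 22 higher and 4 lower, where 4766 of all genes were called.

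Of 10 other genes described as Notch targets, several of which answer to many other signals, 9 passed the filter, and with ipatasertib 6 fell and 1 rose, where 28.7% of all genes fell and 25.4% rose. NRARP, a feedback inhibitor that Notch induces, was at 49.1 ± 2.30 CPM under DMSO, 25.8 ± 1.49 CPM with ipatasertib, 34.9 ± 0.471 CPM with tazemetostat and 16.9 ± 0.589 CPM with the combination (SD, n = 3), a log2 change of -1.54 (SE 0.07, edgeR adjusted p = 1.6e-13) for the last against DMSO. HES4 and HES7, repressors of the HES family, changed by -1.55 (SE 0.12) and -1.86 (SE 0.17) with the combination (adjusted p = 1.06e-09 and 7.05e-09 in edgeR). With ipatasertib the largest falls were in CCND1, cyclin D1, at -1.28 (SE 0.06), CDKN1A, a cell cycle inhibitor, at -1.12 (SE 0.11) and HES7 at -1.11 (SE 0.16). With tazemetostat 4 of the 9 fell and 3 rose (20.9% and 25.1% of all genes): CDKN1A rose by 1.24 (SE 0.10), MYC changed by -0.53 (SE 0.05) and NRARP by -0.49 (SE 0.06). SOX9, a transcription factor, had an interaction of 0.63 (SE 0.07, edgeR adjusted p = 6.06e-05), from 156 ± 5.41 CPM under DMSO to 369 ± 9.97 CPM with the combination.

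Of 9 genes that cut the receptor 7 fell with tazemetostat, where 20.9% of all genes fell. With ipatasertib 1 rose and none fell (25.4% and 28.7% of all genes). The 3 that fell most with tazemetostat were NCSTN, a γ-secretase subunit, at -0.54 (SE 0.06), FURIN, the protease that matures the receptor, at -0.38 (SE 0.09) and PSENEN, another γ-secretase subunit, at -0.33 (SE 0.08). With the combination 2 fell and 2 rose (34.5% and 36.5% of all genes). All 4 glycosylation genes that passed the filter (of 5) fell with tazemetostat (20.9% of all genes), led by the O-fucosyltransferase POFUT1 at -0.53 (SE 0.06), the O-glucosyltransferase POGLUT1 at -0.45 (SE 0.09) and RFNG at -0.39 (SE 0.08). Some of these falls were near the threshold, at edgeR adjusted p = 0.0362 for LFNG and 0.0479 for APH1A (-0.17), a cutting gene. Counts by role are not given under total counts alone, where 20 and not 26 pathway genes fell with tazemetostat. POFUT1 went from 236 ± 4.53 CPM under DMSO to 161 ± 2.96 CPM with ipatasertib and 125 ± 6.73 CPM with the combination. LFNG, the lunatic fringe that tunes which ligands a receptor answers to, went from 9.83 ± 0.486 CPM under DMSO to 8.12 ± 0.229 CPM with tazemetostat and 14.5 ± 2.50 CPM with the combination, with an interaction of 0.61 (SE 0.15, edgeR adjusted p = 0.0231).

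Of 9 nuclear activators, 2 rose and 3 fell with ipatasertib, 3 rose and 4 fell with tazemetostat, and 3 rose and 2 fell with the combination. The shares called were 55.6%, 77.8% and 55.6%, beside 54.1%, 46.0% and 71.0% of all genes. The first was near the background, and 9 genes are too few to read the other differences. MAML3, a Mastermind coactivator, went from 2.02 ± 0.304 CPM under DMSO to 3.62 ± 0.187 CPM with ipatasertib, 3.47 ± 0.430 CPM with tazemetostat and 7.25 ± 1.19 CPM with the combination (log2 change 1.83, SE 0.15, edgeR adjusted p = 1.51e-09, for the last). RBPJ, the factor whose letters were searched above, went from 42.0 ± 0.456 CPM under DMSO to 53.3 ± 5.07 CPM with tazemetostat (log2 change 0.34, SE 0.07, edgeR adjusted p = 0.000828) and 60.9 ± 3.95 CPM with the combination (log2 change 0.53, SE 0.07, edgeR adjusted p = 2.32e-06). Of 12 corepressors, TLE2, a Groucho-type corepressor, moved most, from 1.21 ± 0.307 CPM under DMSO to 5.92 ± 0.325 CPM with tazemetostat and 8.36 ± 1.74 CPM with the combination (log2 change 2.28, SE 0.17, and 2.78, SE 0.17). Its relative TLE4 went the other way, from 88.8 ± 1.60 to 49.4 ± 2.49 CPM with tazemetostat (log2 change -0.85, SE 0.06). In edgeR adjusted p was 2.71e-09 for TLE2 and 1.91e-09 for TLE4 with tazemetostat.

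Among 10 genes of ligand uptake, NUMB and Deltex that passed the filter (of 11), 3 rose and 3 fell with ipatasertib, 2 rose and 4 fell with tazemetostat, and 6 rose and 3 fell with the combination. The shares called were 60%, 60% and 90%, beside 54.1%, 46.0% and 71.0% of all genes, the first of them near the background. NEURL1, a ubiquitin ligase that acts on Delta ligands and is listed under the older symbol NEURL, was near the detection limit at 0.247 ± 0.125 CPM under DMSO and at 0.872 ± 0.436 CPM with the combination (log2 change 1.86, SE 0.44, edgeR adjusted p = 0.000964). The filter asked for about 0.283 CPM in 3 libraries. All tazemetostat-treated libraries had NEURL1 at 0.372 CPM or more, while its mean with ipatasertib was 0.205 CPM. Like DLL1 and HEYL, NEURL1 thus passed the filter through the groups where it was high. It is among the genes counted as risen with tazemetostat and with the combination. Of 3 turnover genes, FBXW7 and CDK8, which mark the intracellular domain for decay, changed by -0.35 (SE 0.08) and -0.26 (SE 0.09) with the combination. Of the 3 other ligands that passed the filter (of 4), none was called with either inhibitor alone (54.1% and 46.0% of all genes), a count too small to read. DLL3 rose with the combination by 0.51 (SE 0.18, edgeR adjusted p = 0.0159), where 36.5% of all genes rose.

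**Figure D4:**
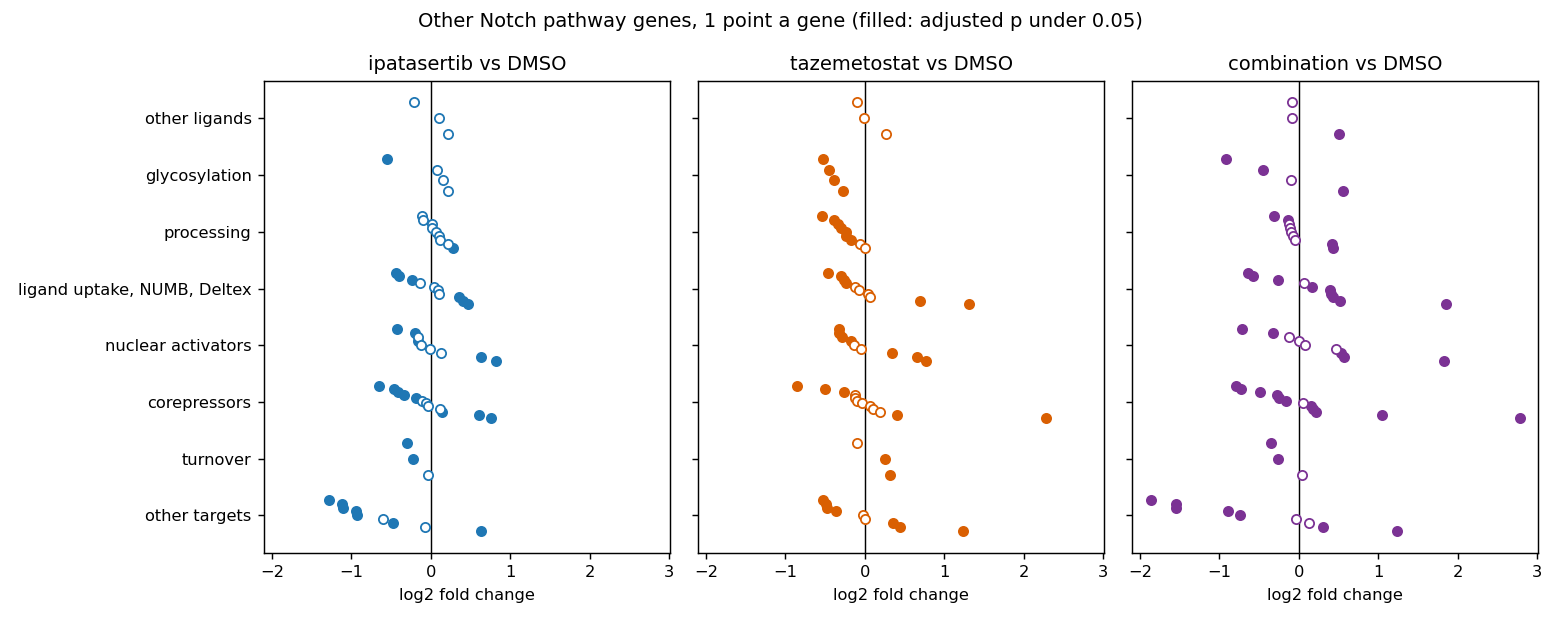
Log2 fold change against DMSO (x axis) of the 59 other Notch pathway genes that passed the filter, 1 point a gene, by role (rows) and treatment (panels), filled where edgeR adjusted p was under 0.05. The point farthest right is the corepressor TLE2 with tazemetostat (2.28) and the combination (2.78), and the row of other targets lies mostly left of 0 with ipatasertib.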

How the data were processed

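RNA from 12 libraries of SUM149PT cells was analysed from gene counts. The authors deposited raw counts per gene and library, and, per the submitters' processing notes, the tools were STAR, SAMtools, HTSeq and DESeq2 and the build was hg19; which version, annotation or strand setting was used is not given. The 5 summary lines that name no gene (29.8% to 38.6% of reads) were left out. A deposited table of normalised signal, in which 23202 of 23228 lines matched by symbol, equalled the counts divided by 1 factor per library within 1e-06 and served only as this check.

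In R 4.3.3, edgeR 4.0.16 was run with filterByExpr (minimum count 10), TMM factors and 1 quasi-likelihood fit with a coefficient per group and no block; the 1.5-fold test was glmTreat. SE was taken as the size of the log2 change over the root of its F statistic. Adjustment was by Benjamini-Hochberg across the genes tested, in each of 6 comparisons, and the threshold was 0.05. The fit was tested on simulated data with 200 changed genes. Far more were called in these data (6849 with tazemetostat against DMSO), so that test does not cover a change of this breadth. Exact binomial intervals were used for count ratios. Alternatives were DESeq2 1.42.0, other scalings and filters, a replicate block, fewer groups and fewer libraries.

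The members and lists were chosen with earlier results of these data known. All 10 members were named; of other pathway genes, up to 3 per role and comparison with the largest called change, and the 3 most correlated genes (log2 CPM with a prior count of 2) for the receptor, ligand and target with the widest range, of which 1 is not reported here. Promoters came from RefSeq (GRCh38.p14) and exon lengths and overlaps from GENCODE v29, matched by symbol. Libraries held 22355242 to 49970540 gene counts, so 3 counts are 0.0602 to 0.130 CPM.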

Additional observations from a re-analysis of the deposited data

Results flagged for a closer look

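For JAG1 and NOTCH2 the effect of ipatasertib with tazemetostat present differed from its effect without, by the interaction term of the edgeR fit. The difference was 0.63 on the log2 scale for JAG1 (edgeR adjusted p = 6.57e-05) and 0.37 for NOTCH2 (adjusted p = 0.0297), the fall with ipatasertib being smaller when tazemetostat was present in both genes. JAG1 kept this call in each of the 12 fits without 1 library and in the other alternatives that gave the term, and NOTCH2 did not, as given above. Groups of 3 libraries are too small for a test of single outlying samples.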

How the results depend on the processing

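No counts of members that rose or fell against DMSO, or that passed 1.5-fold, moved by more than 1.5 times in the alternatives run. The number of members with a positive interaction was 2, and 1 under scaling by total counts alone, 5 without tazemetostat A and combination B, and 1 to 5 over the fits without 1 library. All genes called for the interaction numbered 539, and 943 with DESeq2, 905 without a low-count filter, 4766 without tazemetostat A and combination B, and 243 to 2443 over the fits without 1 library. Members raised by ipatasertib added to tazemetostat numbered 2, and 1 to 2 without 1 library (1 without tazemetostat B). Values near 0 changed sign without a call: NOTCH4 in the combination against ipatasertib, 0.01 in the edgeR fit, gave -0.014 with DESeq2, -0.011 with its size factors in edgeR, -0.033 without a filter and -0.058 to 0.056 without 1 library. NOTCH4 in the combination against tazemetostat gave 0.045 without tazemetostat A and combination B, HES1 with tazemetostat gave 0.022 under total counts alone, and JAG2 with tazemetostat lay between -0.023 and 0.085 without 1 library. The cause of these changes was not tested. Deviations from the group means correlated over 0.1 in 2 of 18 same-letter pairs of libraries and in 3 of 36 other pairs. The 2 were tazemetostat with combination, letters A (0.302) and B (0.207), while letter C gave -0.040. The letters were not taken as pairs in the main fit, and a pairing between these 2 groups was not tested. With the replicate block the interaction was called for 2 members, and NOTCH3 with ipatasertib added to tazemetostat was called at -0.20 (adjusted p = 0.0264). HEYL did not reach a filter of 1 CPM in 3 libraries and gave no value there. Depth limits DLL1, since a count of 0 allows up to 3 counts, and HEYL, whose counts went down to 1 in a library.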
